A study of Mus musculus with 21 samples.

Results

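Androgenetic haploid embryonic stem (ahES) cells are pluripotent, self-renewing cells whose only genome copy comes from a sperm. Haploid cells tend to double their genome in culture, and a haploid line is therefore sorted for haploid cells when it is studied. The ahES lines AH129-N1 and AH129-NC1 were compared by the 3 arrays titled with each name, 6 of the 21 Affymetrix expression arrays of the series. Per the labels, both lines were of the 129 Sv background, grew in N2B27 medium with 2i and LIF, and were sorted by flow cytometry for haploid cells in G0/G1 before total RNA was extracted. The medium inhibits the kinases MEK and GSK3 and supplies LIF, which together hold ES cells in the naive state. The third ahES line, AH129-5, had the same background, medium and sort. The remaining groups, also of 3 arrays each, were the diploid ES lines CS1-1 and R1 (129 Sv, the same medium, no sort stated), mouse embryonic fibroblasts (MEF, CD1 background, DMEM with serum) and round sperm (129 Sv, fresh from testis and sorted as haploid). The labels give no difference in derivation, genotype or treatment between AH129-N1 and AH129-NC1, so the comparison is of 2 cell lines and not of 2 conditions. Arrays of a line were labelled as biological replicates, and p-values measure the spread between such arrays, not the spread between lines.

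Several gene groups bear on what follows. Type I interferon signals through STAT and IRF factors to induce antiviral genes, many of which carry interferon-stimulated response elements in their promoters. The transcription factor p53 induces genes of cell cycle arrest and cell death. Hypoxia-inducible factors are marked for destruction by the prolyl hydroxylases of the Egln family and raise glycolytic genes when they escape it. The ERK kinases, which lie downstream of MEK, induce immediate early genes and their own feedback inhibitors.

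The genes that were lower in AH129-N1 than in AH129-NC1 included antiviral genes led by Irgm1 and Usp18, the p53 target Perp, Myc and the secreted signal Bmp4. Those that were higher included the germ cell and naive ES cell gene Dppa3, the hypoxia-induced genes Egln3 and Bnip3 and several histone genes. Values are log2(signal + offset), where signal is the deposited MAS5 signal and the offset is 9.73 signal units. A gene passed at an adjusted p under 0.05 in limma together with a difference of at least 2-fold. Of 12068 genes tested, 375 passed (3.11%). Of these, 118 were higher in AH129-N1 (0.978% of genes tested) and 257 were lower (2.13%). The ranges over 3 and 3 arrays did not overlap for 361 of the 375, against 47.4% of all genes tested (26.3% with AH129-N1 higher and 21.1% with it lower). The 15 largest rises and 15 largest falls described below were taken from those 361, so that their lack of overlap is by choice. By the fitted difference, a change of 4-fold or more was seen for 3 genes that were higher and 14 that were lower. The median difference over all genes was 0.04 and the median standard error (SE) 0.113. Genes that passed were mostly of low signal: their median level was 6.87 for the higher and 7.03 for the lower genes, against 9.05 for all genes tested, and in 127 of the 375 the lower line was near background (at or below the 40th percentile of its arrays). Folds of such genes are lower bounds. Among the 14 lower genes, AU040972, Gbp3, Mlkl, Zbp1 and Oasl2 were near background in AH129-N1. Their lower bounds, 3.81, 2.82, 1.73, 1.68 and 1.63, are short of 4-fold.

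**Figure D1:**
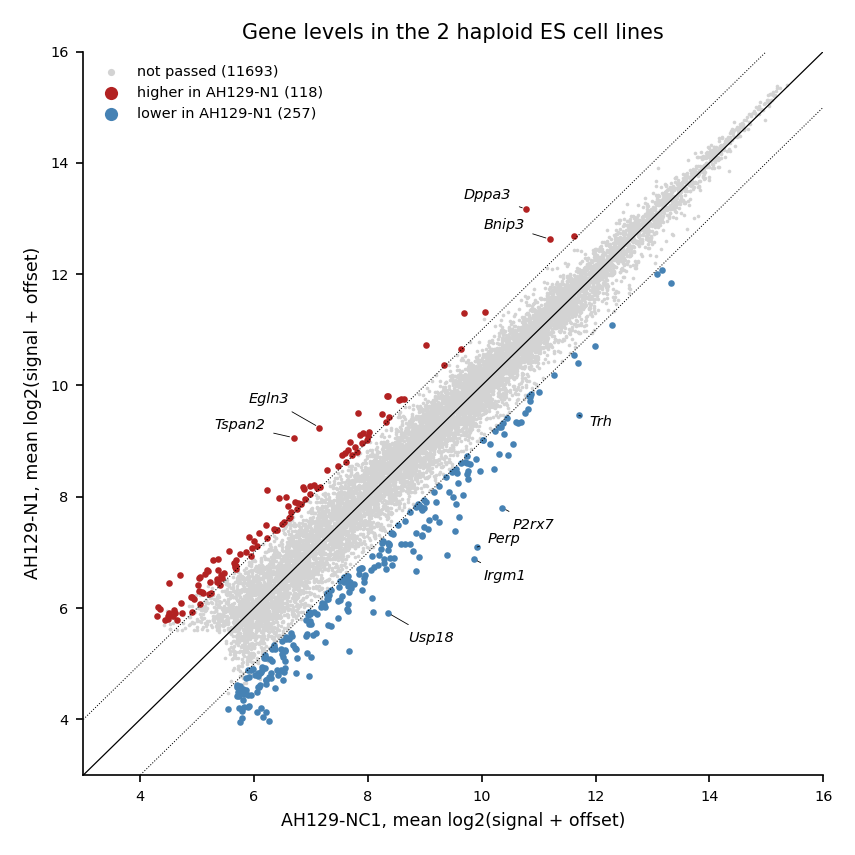
Mean level of each of the 12068 tested genes on the 3 AH129-NC1 arrays (horizontal axis) and the 3 AH129-N1 arrays (vertical axis), both as log2(signal + offset). The solid line marks equal levels and the dotted lines a 2-fold difference; 118 genes that passed lie above (red) and 257 below (blue), most of them in the lower part of the range.

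The 2 lines were close relatives among the groups measured. Across genes, arrays of AH129-N1 correlated with each other at a mean Pearson r of 0.989 and arrays of AH129-NC1 at 0.990. Between the lines the mean r was 0.974 (0.971 to 0.976 over 9 pairs of arrays), against 0.968 and 0.967 with AH129-5 and 0.732 and 0.743 with MEF. Genes are not independent replicates, so these coefficients are descriptions. The 3' to 5' difference of the Actb control probe sets, a sign of RNA integrity, was 0.57 ± 0.08 (SD, n = 3) in AH129-N1 and 0.54 ± 0.06 (SD, n = 3) in AH129-NC1.

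Both lines carried the profile of naive pluripotent cells. Pou5f1, the central pluripotency factor, read 13.51, 13.63 and 13.59 in AH129-N1 and 13.60, 13.74 and 13.70 in AH129-NC1, against a mean of 4.30 in MEF. The ranges overlapped and the difference was -0.10 ± 0.05 (SE, adjusted p = 0.146). The other core factors stood within 0.50 of each other: the difference was 0.15 ± 0.05 for Nanog, -0.20 ± 0.08 for Sox2, -0.22 ± 0.06 for Klf4, -0.24 ± 0.04 for Zfp42, 0.02 ± 0.06 for Esrrb and -0.45 ± 0.06 for Tbx3, and none of them passed. Of 20 measured round spermatid markers, 14 were near background in both lines. Of the tested round spermatid (4), Sertoli and Leydig cell (5), primed epiblast (15) and primitive endoderm (13) markers, none passed. The primitive endoderm markers had a median of -0.38, with 4 of 13 lower at an adjusted p under 0.05 at any fold, where 15.9% of all genes were. At an unadjusted p under 0.05, 0 of those 13 were higher and 6 lower. For the primed epiblast, round spermatid and Sertoli and Leydig cell markers the counts were 3 and 4, 2 and 0, and 1 and 2. The shares of all genes at an unadjusted p under 0.05 are not given here. They are at least those at an adjusted p under 0.05 at any fold, 20.4% higher and 15.9% lower. Counts at an unadjusted p, here and below, are therefore descriptions and no sign of a shift by themselves.

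The largest fall was in Irgm1, an interferon-inducible GTPase of innate immunity. Its level was 7.02, 7.03 and 6.60 in AH129-N1 and 9.91, 9.69 and 9.98 in AH129-NC1. The AH129-N1 arrays lay far below all AH129-NC1 arrays, a difference of 7.86-fold (log2 -2.97 ± 0.11, adjusted p = 9.26e-13). Across the series, Irgm1 averaged 9.45 ± 0.14 (SD, n = 3) in AH129-5, 8.81 ± 0.03 in CS1-1, 10.17 ± 0.05 in R1 and 8.53 ± 0.17 in MEF, so that AH129-N1, at 6.88 ± 0.24, had the lowest level of the 5 ES lines.

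Usp18, the protease that strips the ubiquitin-like modifier ISG15 from proteins and restrains interferon receptor signalling, was also lowest in AH129-N1 among the ES lines. AH129-N1 read 6.04, 5.93 and 5.78 and AH129-NC1 8.19, 8.39 and 8.46, again without overlap. The difference was 5.38-fold (log2 -2.43 ± 0.14, adjusted p = 1.94e-10), and AH129-5, CS1-1 and R1 averaged 8.86, 8.05 and 8.30. Rtp4, an interferon-induced chaperone of receptors, stood at 6.88, 6.60 and 6.50 against 8.72, 8.95 and 8.87, a difference of 4.56-fold (log2 -2.19 ± 0.12, adjusted p = 1.03e-10). A further probe set of Rtp4 was near background in both lines. Another 3 of the 15 largest falls were antiviral genes with AH129-N1 near background: Gbp3, a guanylate-binding protein, was at least 2.82-fold lower, Oasl2, of the oligoadenylate synthetase family, at least 1.63-fold, and Zbp1, a sensor of Z-form nucleic acids, at least 1.68-fold lower.

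The list of interferon-responsive and antigen-processing genes held 36 measured genes, of which 34 were tested. In AH129-N1, 12 were lower and 0 higher, where 2.13% of all genes were lower and 0.978% higher. At an adjusted p under 0.05 at any fold, 23 were lower and 2 higher (15.9% and 20.4% of all genes), and at an unadjusted p under 0.05, 25 and 3. The median difference of the list was -0.74, against 0.04 over all genes. The summed signal of its measured members ran from 35539 to 37215 over the AH129-N1 arrays and from 46924 to 48429 over the AH129-NC1 arrays, without overlap. The 12 were Usp18, Gbp3, Oasl2 and Zbp1, the Ifit1, Ifit2 and Ifit3 genes, whose products bind foreign RNA, the transcription factor Irf7, the immunoproteasome subunit Psmb8, the RNA sensors Ifih1 and Ddx58, and the synthetase Oas2. In 7 of the 12, AH129-N1 was near background. The count was 7 with an offset of 50 and 4 with a filter at the 60th percentile, both of which bear on genes of low signal. That filter takes genes out of the test, and over all genes 0 calls were lost among those still tested.

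Ifit1 read 5.96, 6.15 and 5.75 in AH129-N1 and 7.38, 8.00 and 7.55 in AH129-NC1, a difference of 3.23-fold (log2 -1.69 ± 0.24, adjusted p = 1.63e-05). Oas2 read 7.12, 6.65 and 7.09 against 8.25, 8.30 and 8.05 (2.37-fold, log2 -1.24 ± 0.14, adjusted p = 1.75e-06). Ddx58, which encodes RIG-I, read 8.88, 8.47 and 8.50 against 9.67, 9.72 and 9.71 (2.12-fold, log2 -1.08 ± 0.11, adjusted p = 3.8e-07). None of these ranges overlapped. Ddx58 did not pass when its 3 probe sets were averaged (log2 -0.44, adjusted p = 0.137), 1 of which was near background in both lines.

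Of the 34 genes, 22 did not pass. In the MHC class I pathway, where Psmb8 passed, the difference was -0.36 ± 0.07 for B2m, the light chain, -0.80 for H2-K1, -0.77 for H2-D1, -0.88 for the peptide transporter Tap1 and -0.78 for the immunoproteasome subunit Psmb9, all short of 2-fold. The signalling factor Stat2 differed by -0.03, Irf9 by -0.56 and the restriction factor Bst2 by -0.18. On the other side of zero, Irf1 stood at 0.31 and the antiviral GTPase Mx1 at 0.93, both at an adjusted p under 0.05 and short of 2-fold. Beside AH129-5, the median of the 34 genes was -0.78 in AH129-N1 and 0.12 in AH129-NC1. These 2 comparisons share the AH129-5 arrays, and the values are given side by side without a test.

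A family chosen after its values were seen, the immunity-related and guanylate-binding GTPases, held 7 tested genes. All 7 differences were negative, with a median of -1.21, where 54.3% of all genes had a positive difference. Of the 7, 4 passed as lower (2.13% of all genes): Irgm1, Gbp3, Irgm2 and Igtp. Gbp3 is also on the interferon list. Igtp was 2.32-fold lower (log2 -1.21 ± 0.17, adjusted p = 1.79e-05) and Irgm2 at least 2.18-fold lower. The genes are paralogs, and probes may not tell all copies apart.

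Shown are promoters of lower genes of innate immunity that carry the core of the interferon-stimulated response element. They are thus chosen for the match and for the kind of gene. RefSeq gives, for build GRCm38.p6, a promoter for 28 of the 34 tested interferon-responsive genes. The motif GAAANNGAAA, with N any base, was searched on both strands in the 250 bases before the start site. It was found in 10 of the 28 (35.7%), against 2.98% of 32851 promoters in the table and 3.09% of the 9756 tested genes with a promoter. Members of the list that were lower held it in 3 of 9 (33.3%), so most matches were in members that did not pass. Among genes that were lower in AH129-N1 it was found in 13 of 191 (6.81%), and among higher genes in 4 of 87 (4.60%). The 13 also included Mmp13, Tm4sf1, Pcsk1, Lgals9, Mapkapk3 and Iqcf3, whose promoters are not shown. The sequences below run 5′ to 3′ on the strand of the gene, and capitals mark the matches, overlapping ones joined. They come from chr11:48871421-48871480 on the minus strand for Irgm1, chr11:58199492-58199555 on the plus strand for Igtp, chr11:58214883-58214952 on the plus strand for Irgm2, chr3:142559969-142560043 on the plus strand for Gbp3, chr19:34640755-34640843 on the plus strand for Ifit1, chr19:34583343-34583446 on the plus strand for Ifit3 and chr5:92349063-92349132 on the minus strand for Cxcl10.
Irgm1: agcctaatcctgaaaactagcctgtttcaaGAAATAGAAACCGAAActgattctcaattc
Igtp: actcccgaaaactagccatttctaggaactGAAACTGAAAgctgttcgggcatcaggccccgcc
Irgm2: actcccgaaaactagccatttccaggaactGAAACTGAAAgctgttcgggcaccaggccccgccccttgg
Gbp3: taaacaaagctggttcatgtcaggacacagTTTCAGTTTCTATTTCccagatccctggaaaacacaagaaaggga
Ifit1: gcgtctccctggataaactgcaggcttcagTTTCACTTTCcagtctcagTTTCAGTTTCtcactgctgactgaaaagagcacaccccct
Ifit3: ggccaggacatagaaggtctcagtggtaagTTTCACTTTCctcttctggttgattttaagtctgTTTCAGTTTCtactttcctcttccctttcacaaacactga
Cxcl10: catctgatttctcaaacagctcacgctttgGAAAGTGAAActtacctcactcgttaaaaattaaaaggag

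In Irgm1 the match nearest to the start site ended 14 bases before it, in Igtp 24 and in Gbp3 29 bases before it. Ifit1 and Ifit3 held 2 separate matches each. Cxcl10, an interferon-induced chemokine outside the list and chosen after its value was seen, was 2.43-fold lower in AH129-N1 (log2 -1.28 ± 0.32, adjusted p = 0.0042). A match is a description of the letters and was not tested as a binding site.

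**Figure D2:**
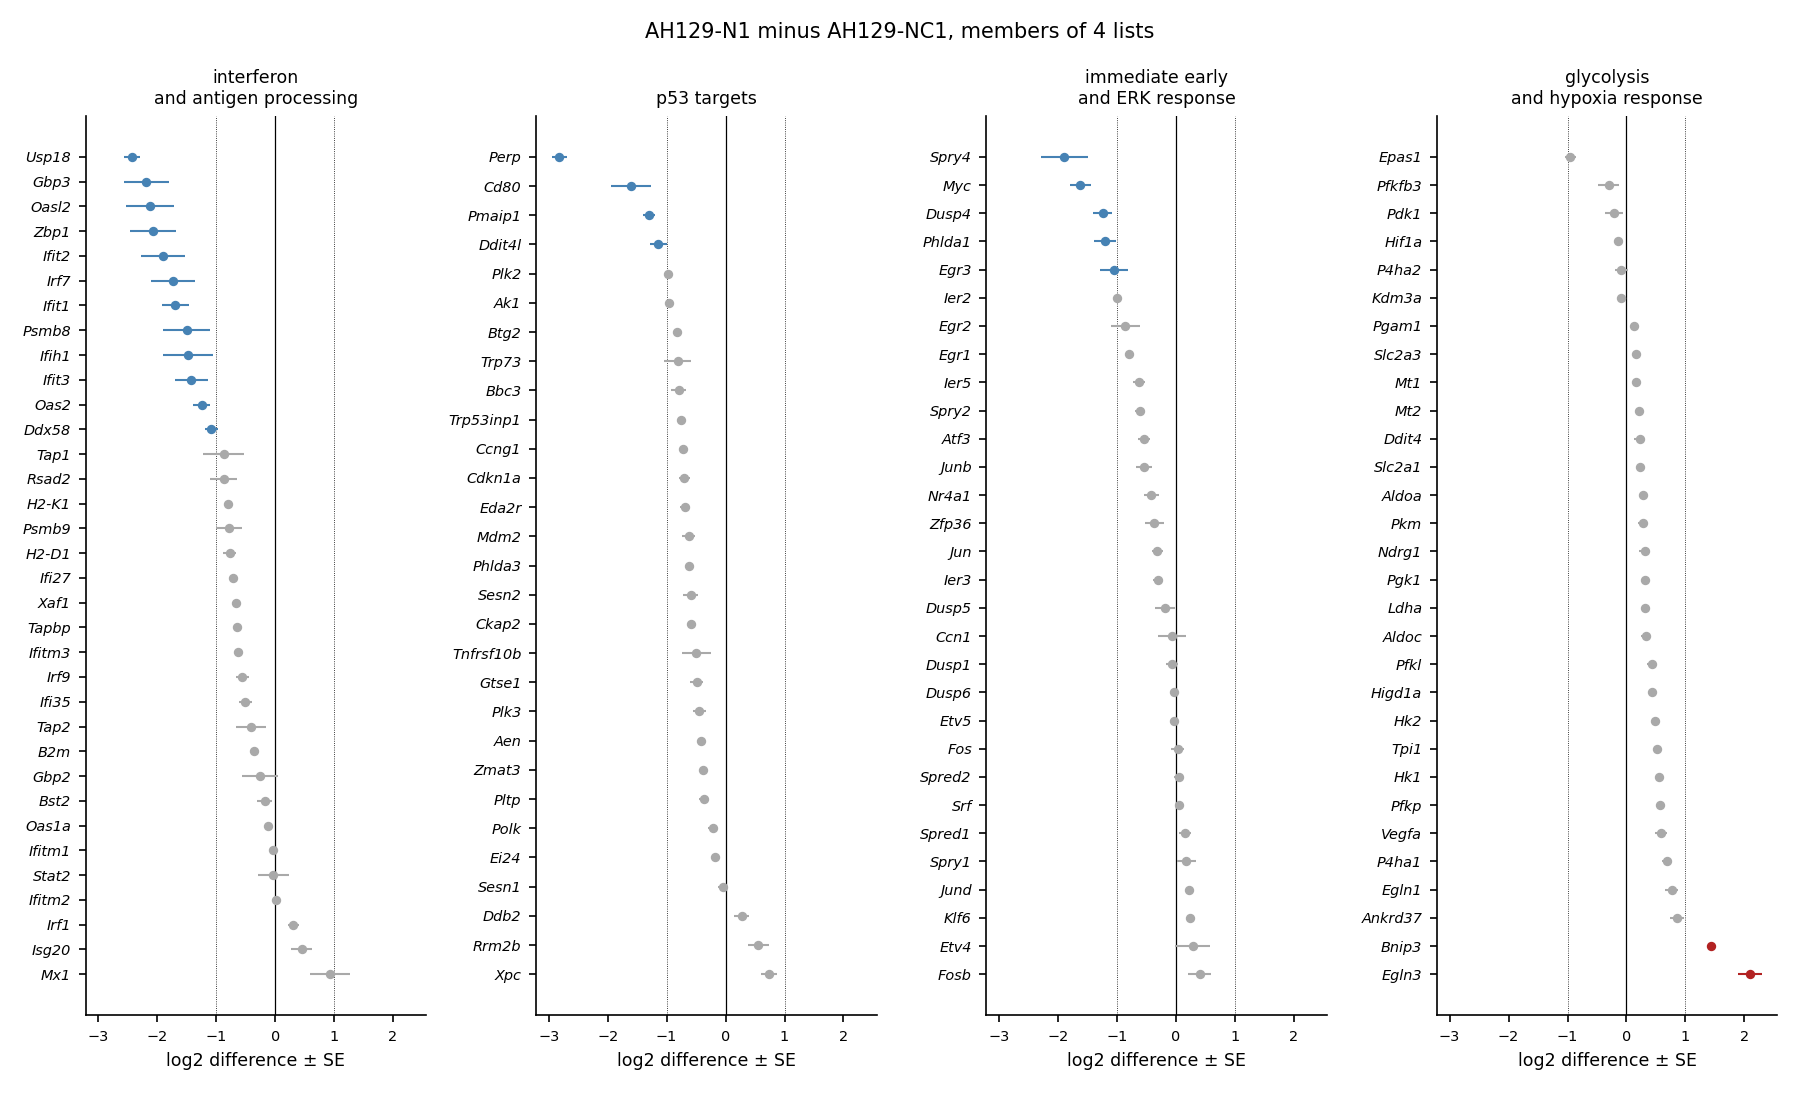
Difference of AH129-N1 minus AH129-NC1 (log2, horizontal axis, bars are ± SE of the limma fit) for each tested member of 4 lists. Blue members passed as lower and red as higher, grey did not pass, and dotted lines mark 2-fold; 12 interferon-responsive, 4 p53-induced and 5 ERK-responsive genes are blue, and Egln3 and Bnip3 are red.

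Genes induced by p53 were the next list with lower members in AH129-N1. Of 29 tested, 4 passed, all lower: Perp, Cd80, Pmaip1 and Ddit4l (2.13% of all genes were lower). Counted at an adjusted p under 0.05 at any fold, 24 of the 29 were lower and 2 higher (15.9% and 20.4% of all genes). The median was -0.62, and the summed signal ran from 50983 to 55907 in AH129-N1 and from 82725 to 85865 in AH129-NC1.

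Perp, a p53 target that acts in cell death and at desmosomes, gave the second largest fall. It read 7.10 ± 0.19 (SD, n = 3) in AH129-N1, with a highest array of 7.32, and 9.89, 10.06 and 9.81 in AH129-NC1, a wide separation. The difference was 7.07-fold (log2 -2.82 ± 0.13, adjusted p = 9.4e-12). AH129-5 averaged 7.09 ± 0.24, a mean within the spread of AH129-N1, and AH129-NC1, at 9.92 ± 0.13 (SD, n = 3), had the highest mean of the 7 groups.

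Pmaip1, which encodes the BH3-only death protein NOXA, read 9.63, 9.26 and 9.09 in AH129-N1 and 10.70, 10.64 and 10.55 in AH129-NC1 (2.47-fold, log2 -1.30 ± 0.10, adjusted p = 2.07e-08). Ddit4l, an inhibitor of mTOR signalling, read 8.56, 8.31 and 8.43 against 9.58, 9.39 and 9.74 (2.20-fold, log2 -1.14 ± 0.14, adjusted p = 3.48e-06). Cd80, a ligand of T cell costimulation, read 5.61, 5.73 and 5.73 against 7.33, 7.05 and 7.50 (3.04-fold, log2 -1.61 ± 0.34, adjusted p = 0.00107). The ranges were apart in all 3 genes, but Cd80 was short of 2-fold when its probe sets, 1 of them near background in both lines, were averaged (log2 -0.93).

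The most used readouts of p53 lay on the same side without reaching 2-fold. Cdkn1a, the inhibitor p21, read 12.49, 12.66 and 12.18 in AH129-N1 and 13.26, 13.04 and 13.14 in AH129-NC1 (log2 -0.70 ± 0.10, adjusted p = 3.21e-05). Mdm2, the ubiquitin ligase of p53, differed by -0.63 ± 0.11, the cyclin Ccng1 by -0.73 ± 0.06 and the death gene Bbc3, or PUMA, by -0.80. The 2 that were higher at an adjusted p under 0.05 were genes of DNA repair and nucleotide supply, Xpc at 0.73 and Rrm2b at 0.55, both short of 2-fold. Trp53 itself was not analysed here.

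For the p53-induced genes the median was 1.04 in AH129-N1 minus AH129-5 and 1.67 in AH129-NC1 minus AH129-5, comparisons that share the AH129-5 arrays. Cdkn1a averaged 10.59 ± 0.08 (SD, n = 3) in AH129-5 and Ccng1 10.45 ± 0.07, below both other ahES lines. By these medians AH129-N1 stood between AH129-5 and AH129-NC1 for the p53-induced genes and below both for the interferon-responsive genes, but single genes differed. Pmaip1 averaged 10.40 in AH129-5, above the 9.33 of AH129-N1, and Perp differed by 0.01 between AH129-N1 and AH129-5. Of 18 tested regulators of apoptosis, 0 were higher and 1 lower (0.978% and 2.13% of all genes), Pmaip1, which is also on the p53 list. With no minimum fold, 4 were higher and 5 lower at an adjusted p under 0.05 (20.4% and 15.9% of all genes). Among genes of necroptosis and pyroptosis, the pseudokinase Mlkl, which carries out necroptosis, was at least 1.73-fold lower, and Gsdmd, the pore-forming gasdermin D, was 2.93-fold higher (log2 1.55 ± 0.36, adjusted p = 0.00298). Without AH129-NC1 replicate 2, which read 5.30 beside 7.21 and 6.80, Gsdmd was short of 2-fold (log2 0.98).

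Growth-signal genes formed the next group of falls. Of 30 tested immediate early and ERK-responsive genes, 5 were lower and 0 higher (2.13% and 0.978% of all genes): Spry4 and Dusp4, feedback inhibitors of the ERK pathway, the growth regulator Myc, Phlda1 and the transcription factor Egr3. At an adjusted p under 0.05 at any fold, 15 were lower and 2 higher (15.9% and 20.4%), and the median was -0.31. Myc read 7.06, 6.61 and 6.42 in AH129-N1 and 8.33, 8.43 and 8.21 in AH129-NC1, without overlap (3.09-fold, log2 -1.63 ± 0.18, adjusted p = 1.02e-06). Its level was 8.39 ± 0.11 (SD, n = 3) in AH129-5, 7.10 ± 0.30 in CS1-1 and 7.95 ± 0.20 in R1.

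Spry4 read 6.78, 6.12 and 5.63 against 8.21, 7.79 and 8.22 (3.72-fold, log2 -1.89 ± 0.40, adjusted p = 0.00158). Dusp4 read 7.55, 6.98 and 6.86 against 8.15, 8.67 and 8.31 (2.37-fold, log2 -1.25 ± 0.17, adjusted p = 1.04e-05). Phlda1 read 8.92, 8.93 and 8.96 against 9.84, 10.26 and 10.34 (2.30-fold, log2 -1.20 ± 0.18, adjusted p = 0.000129). All 3 were apart between the lines. Egr3 differed by 2.07-fold (log2 -1.05 ± 0.23, adjusted p = 0.00161) and missed 2-fold when AH129-N1 replicate 2 (-0.83) or AH129-NC1 replicate 3 (-0.94) was left out. Other members of the same response did not differ alike: Egr1 was lower by 0.79 on the log2 scale and short of 2-fold, while the difference was 0.03 for Fos, -0.04 for the phosphatase Dusp6 and -0.03 for Etv5.

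Secreted signals were also among the falls. Bmp4, a ligand that holds ES cells undifferentiated and later patterns mesoderm, read 8.28, 7.54 and 7.09 in AH129-N1 and 9.48, 9.81 and 9.53 in AH129-NC1, a difference of 3.92-fold (log2 -1.97 ± 0.22, adjusted p = 3.84e-06). Fst, the activin antagonist follistatin, read 8.06, 8.20 and 7.99 against 9.48, 9.27 and 9.54 (2.54-fold, log2 -1.34 ± 0.13, adjusted p = 3.05e-07). Neither gene overlapped between the lines. They were the only 2 of 22 tested Nodal and BMP genes to pass (3.11% of all genes passed), and the list median was 0.02. The BMP targets Id1 and Id3 differed by -0.61 ± 0.09 and -0.98 ± 0.11, both short of 2-fold, and Id2 by 0.28. Trh, the precursor of thyrotropin-releasing hormone, read 9.58, 9.55 and 9.25 against 11.57, 11.82 and 11.73 (4.74-fold, log2 -2.25 ± 0.10, adjusted p = 9.4e-12).

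Of 18 tested Wnt genes and targets, 1 was higher, Cdx1, and 1 lower, Myc (0.978% and 2.13% of all genes). Cdx1, a caudal homeobox factor, was 2.01-fold higher (log2 1.01 ± 0.15, adjusted p = 2.75e-05), at the threshold: it missed 2-fold when AH129-N1 replicate 1 (0.98) or 3 (just under 1.00) or AH129-NC1 replicate 1 (0.88) was left out. The Wnt feedback gene Axin2 stood at 0.53, and Cdx2 at -0.38 ± 0.16 with overlapping ranges.

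Extracellular proteases and markers of fibroblasts were lower in part. Mmp3 and Mmp13, a stromelysin and a collagenase, were among the 15 largest falls. Mmp3 read 7.04, 7.17 and 6.65 in AH129-N1 and 9.48, 9.24 and 9.44 in AH129-NC1 (5.40-fold, log2 -2.43 ± 0.20, adjusted p = 3.53e-08). Mmp13 read 7.08, 7.61 and 7.44 against 9.72, 9.55 and 9.33 (4.47-fold, log2 -2.16 ± 0.20, adjusted p = 1.25e-07). Both genes were apart between the lines, and both were higher in MEF, at 12.74 and 10.76. Among all 10 tested Mmp genes, a family chosen after its values were seen, 3 were lower and 0 higher (2.13% and 0.978% of all genes). Beside Mmp3 and Mmp13, the lower one was Mmp12 (at least 1.32-fold).

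Of 35 tested fibroblast and matrix markers, 5 were lower and 0 higher (2.13% and 0.978% of all genes): S100a4, Acta2, Tagln, Thbs1 and Prrx1. With no minimum fold, 13 were lower and 3 higher (15.9% and 20.4%). S100a4, a calcium-binding protein of motile cells, read 6.66, 6.90 and 7.18 against 8.73, 9.03 and 8.95 (3.98-fold, log2 -1.99 ± 0.16, adjusted p = 2.49e-08). Acta2, smooth muscle actin, read 8.95 ± 0.04 (SD, n = 3) against 10.53, 10.49 and 10.62 (3.02-fold, log2 -1.59 ± 0.08, adjusted p = 4.92e-11). Both were clear of overlap, though Acta2 did not reach 2-fold when its probe sets were averaged (log2 -0.75), the others being near background. Tagln, or transgelin, was 2.77-fold lower (log2 -1.47 ± 0.16, adjusted p = 1.31e-06) and the matrix protein Thbs1 2.51-fold lower (log2 -1.32 ± 0.13, adjusted p = 2.07e-07). Prrx1, a homeobox factor of mesenchyme, was 2.09-fold lower (log2 -1.06 ± 0.18, adjusted p = 0.000136) and missed 2-fold when AH129-N1 replicate 3 (-0.99) or AH129-NC1 replicate 3 (-0.90) was left out. Its other probe sets, some near background in both lines, ranged from -0.67 to 0.23. When its probe sets were averaged, Prrx1 did not pass (log2 -0.47, adjusted p = 0.104).

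The collagens of fibroblasts did not follow. Col1a1 differed by 0.31 ± 0.17 with overlapping ranges (9.70, 10.00 and 9.48 against 9.07, 9.50 and 9.69), and Col3a1 by 0.59 ± 0.10. The intermediate filament gene Vim differed by -0.29 ± 0.04. The summed signal of the 36 measured markers ran from 83316 to 90111 in AH129-N1 and from 88219 to 91748 in AH129-NC1, which overlap, against 587471 to 626766 in MEF, and no marker was at 0 in any of the 6 arrays. In bulk RNA, fewer cells of a type and less RNA per cell cannot be told apart. Of the 257 lower genes, 80 (31.1%) were at least 2-fold higher in MEF than in both lines, against 14 of the 118 higher genes (11.9%) and 15.5% of all genes tested. Both lines were sorted for haploid cells in G0/G1, but the purity of the sorts was not analysed here. The part of fibroblast RNA in these differences was not tested.

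Markers of blood and immune cells were sparse: of 7 tested, 1 was lower, the lysosomal protein Cd68, and 0 higher (2.13% and 0.978% of all genes). Cd68 read 8.06, 8.06 and 7.89 against 9.65, 9.39 and 9.46 (2.82-fold, log2 -1.50 ± 0.11, adjusted p = 7.02e-09), and it stood at 9.55 in AH129-5 and 10.11 in CS1-1. The leukocyte antigen Ptprc was near background in both lines, and the macrophage gene Lyz2 stood at 0.64, on the other side of zero. The summed signal of the 11 measured markers ran from 2494 to 2746 in AH129-N1 and from 3635 to 3818 in AH129-NC1, with 1 marker at 0 on at least 1 of the 6 arrays. The part of blood cell RNA in the lower interferon-responsive genes was not tested. P2rx7, an ATP-gated channel best known from macrophages, read 7.65, 8.14 and 7.63 against 10.43, 10.44 and 10.21, far apart (5.88-fold, log2 -2.55 ± 0.18, adjusted p = 3.73e-09). Its other probe sets differed by -2.01 and -1.06.

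**Figure D3:**
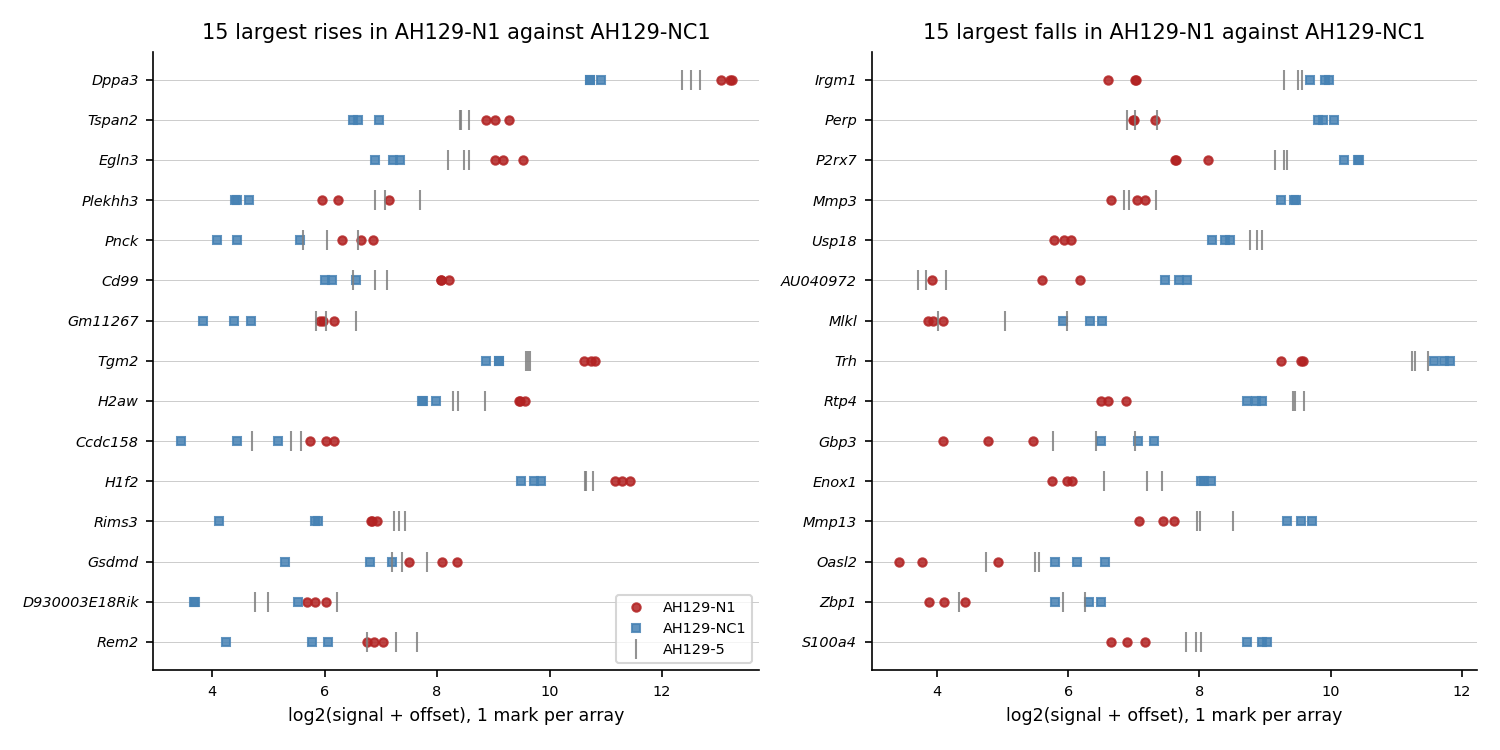
Level on each array, as log2(signal + offset) on the horizontal axis, of the 15 largest rises (left) and the 15 largest falls (right), ordered by size. Red circles are the 3 AH129-N1 arrays, blue squares the 3 AH129-NC1 arrays and grey ticks the 3 AH129-5 arrays. The 30 genes were chosen so that red and blue do not overlap. AH129-5 sits beside AH129-N1 in some (Perp, Mmp3) and beside AH129-NC1 in others (Irgm1, Trh).

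Among the genes that were higher in AH129-N1, Dppa3 stood first. It encodes Stella, a chromatin factor of oocytes, early embryos, germ cells and naive ES cells that protects DNA methylation in the zygote. Its level was 13.20, 13.05 and 13.24 in AH129-N1 and 10.71, 10.91 and 10.71 in AH129-NC1. The lines were far apart, at 5.22-fold (log2 2.38 ± 0.07, adjusted p = 2.81e-14). AH129-5 averaged 12.52 ± 0.16 (SD, n = 3), CS1-1 11.51 ± 0.04 and R1 10.96 ± 0.03, so that AH129-N1 had the highest and AH129-NC1 the lowest mean of the 5 ES lines. The difference of AH129-NC1 minus R1 was not tested.

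Dppa3 was the only one of 34 tested pluripotency genes to be higher, and 1 was lower (0.978% and 2.13% of all genes). The lower one was the zinc-finger gene Zfp296 (2.19-fold, log2 -1.13 ± 0.09, adjusted p = 1.74e-08). With no minimum fold, 5 were higher and 15 lower at an adjusted p under 0.05 (20.4% and 15.9% of all genes), and the median was -0.19. Other genes with a Dppa symbol did not move with Dppa3: Dppa2 differed by -0.52 ± 0.06, Dppa4 by -0.01 ± 0.05 and Dppa5a by 0.19 ± 0.07, none of which passed.

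The clearest rises among metabolic genes were 2 genes induced by hypoxia. Egln3, the prolyl hydroxylase that is itself induced by hypoxia-inducible factors, read 9.18, 9.03 and 9.52 in AH129-N1 and 7.34, 7.21 and 6.89 in AH129-NC1 (4.28-fold, log2 2.10 ± 0.21, adjusted p = 4.67e-07). Bnip3, which directs mitochondria to autophagy, read 12.57, 12.53 and 12.79 against 11.26, 11.23 and 11.10 (2.70-fold, log2 1.43 ± 0.06, adjusted p = 5.73e-12). Neither gene overlapped. These 2 of the 30 tested genes of glycolysis and the hypoxia response were higher, and 0 were lower (0.978% and 2.13% of all genes).

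At an adjusted p under 0.05 at any fold, 22 of the 30 were higher (20.4% of all genes) and 1 was lower. The median was 0.31, and the summed signal ran from 235468 to 254811 in AH129-N1 and from 196880 to 204843 in AH129-NC1, without overlap. Glycolytic enzymes differed by 0.56 for Hk1, 0.57 for Pfkp, 0.52 for Tpi1, 0.31 ± 0.06 for Pgk1 and 0.31 ± 0.07 for Ldha. The angiogenic factor Vegfa stood at 0.58 ± 0.10 and the hydroxylase Egln1 at 0.76. The 1 lower member was Epas1, which encodes HIF-2α (-0.95 ± 0.09), and Hif1a differed by -0.15. In the fit over all 21 arrays, 13 rather than 22 were higher at an adjusted p under 0.05.

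Beside AH129-5, the median of the 30 genes was 0.01 in AH129-N1 and -0.29 in AH129-NC1, with the AH129-5 arrays in both comparisons. Bnip3 averaged 12.32 ± 0.02 (SD, n = 3) in AH129-5, 12.63 ± 0.01 in CS1-1 and 10.28 ± 0.05 in R1. The lower level in AH129-NC1 therefore lay between those of the 2 diploid lines. Oxidative phosphorylation genes were close: of 29 tested, 0 passed, with a median of 0.07 and a range from -0.29 to 0.26. In limma at an unadjusted p under 0.05, 8 of these were higher and 2 lower. Of all genes, 20.4% were higher and 15.9% lower even at an adjusted p under 0.05.

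The core of the hypoxia response element, ACGTG, was searched in the same promoter windows on both strands. It was found in 18 of 27 promoters of the list (66.7%), against 25.0% of the tested genes and 16.6% of all promoters in the table. Among genes that were higher in AH129-N1 it was found in 20.7% of 87, and among lower genes in 19.9% of 191. The windows of the 2 genes that were higher are shown with the matches in capitals, from chr7:138909579-138909644 on the minus strand for Bnip3 and chr12:54204069-54204124 on the minus strand for Egln3.
Bnip3: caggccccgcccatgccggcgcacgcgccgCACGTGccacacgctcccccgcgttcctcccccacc
Egln3: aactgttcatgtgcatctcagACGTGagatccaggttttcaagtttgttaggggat
The palindrome in Bnip3 counts as 2 matches, one on each strand, and the single match in Egln3 lay 224 bases before the start site.

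Several histone genes were higher; the family was chosen after its values were seen. Of 15 tested, 4 were higher (0.978% of all genes), 0 lower (2.13%) and 14 had a positive difference (54.3% of all genes), with a median of 0.49. H1f2, a linker histone, read 11.43, 11.16 and 11.29 in AH129-N1 and 9.73, 9.84 and 9.49 in AH129-NC1 (3.04-fold, log2 1.60 ± 0.08, adjusted p = 5.05e-11). H2ac19, a core histone, read 9.83, 9.78 and 9.81 against 8.42, 8.29 and 8.27 (2.79-fold, log2 1.48 ± 0.12, adjusted p = 1.54e-08). H2aw read 9.56, 9.48 and 9.46 against 7.75, 7.74 and 7.97 (3.19-fold, log2 1.68 ± 0.16, adjusted p = 2.07e-07). The arrays of the lines were apart in each. A further probe set of H1f2 differed by 1.20, the last of H1f2 was near background in both lines and the other of H2aw near background in AH129-NC1. H2bc18, beside H2ac19 in the genome, was at least 1.96-fold higher. Histone genes are near-identical copies of each other, so which copy a probe set reads is uncertain. Most histone mRNA made in S phase lacks a poly(A) tail, and the oligo(dT) labelling of these arrays reads such RNA poorly.

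Cell cycle lists had positive medians and 0 genes that passed. The median was 0.16 for 35 S phase genes, 0.15 for 37 genes of G2 and mitosis and 0.36 for 21 G1 cyclins and Cdk inhibitors. At an adjusted p under 0.05 at any fold, 17 S phase genes were higher and 1 lower, and 15 genes of G2 and mitosis were higher and 3 lower (20.4% and 15.9% of all genes). At an unadjusted p under 0.05 the counts were 18 and 2 for S phase, 16 and 3 for G2 and mitosis, and 9 and 4 for the G1 genes. Both lines were sorted for G0/G1, and the purity of the sorts was not analysed here. Cdkn2a, the Ink4a and Arf gene, stood at 0.41 ± 0.13 and the retinoblastoma gene Rb1 at -0.86.

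Other rises were of genes with varied roles. Tspan2, a tetraspanin, read 9.28, 8.88 and 9.03 in AH129-N1 and 6.97, 6.51 and 6.60 in AH129-NC1 (5.16-fold, log2 2.37 ± 0.17, adjusted p = 5.74e-09), and its other probe sets differed by 2.94 and 2.28. Cd99, a surface glycoprotein, read 8.08, 8.22 and 8.07 against 6.23 ± 0.29 (SD, n = 3), with a highest array of 6.56 (3.71-fold, log2 1.89 ± 0.44, adjusted p = 0.00283). Tgm2, the enzyme transglutaminase that cross-links proteins, read 10.61, 10.81 and 10.74 against 9.11, 9.10 and 8.86 (3.25-fold, log2 1.70 ± 0.10, adjusted p = 1.94e-10), and its other probe sets ranged from 0.66 to 1.60, except 1 that was near background in both lines. None of the 3 overlapped between the lines.

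The remaining 7 of the 15 largest rises lay near background in AH129-NC1. Pnck, a calmodulin-dependent kinase, was at least 2.15-fold higher, Rims3, of the synaptic active zone, at least 2.23-fold, Rem2, a small GTPase, at least 2.19-fold, and Plekhh3 at least 1.98-fold higher. Gm11267, Ccdc158 and D930003E18Rik were at least 1.48-fold, 1.43-fold and 1.28-fold higher. The least stable of these was D930003E18Rik, which did not pass without any 1 of AH129-N1 replicates 1, 2 and 3 or AH129-NC1 replicates 1 and 3 (log2 1.24 to 1.63, adjusted p from 0.0711 to 0.149). Ccdc158 did not pass without AH129-NC1 replicate 2 (adjusted p = 0.0702), and Rem2 was short of 2-fold without AH129-NC1 replicate 1 (log2 0.97). The other probe set of Rims3 lay on the opposite side, at 5.16 in AH129-N1 and 5.62 in AH129-NC1 (log2 -0.46). When its probe sets were averaged, Rims3 did not pass (log2 0.56, adjusted p = 0.102).

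Among the falls not yet described, Enox1, a cell-surface oxidase, read 5.75, 5.98 and 6.06 against 8.18, 8.06 and 8.03 (4.47-fold, log2 -2.16 ± 0.37, adjusted p = 0.000148). AU040972 was at least 3.81-fold lower, near background in AH129-N1 and in AH129-5.

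Germline genes that DNA methylation keeps silent in somatic cells had the highest median of the lists with 4 or more tested genes, 0.51. Of 28 tested, 4 were higher, Magea6, Tex13b, Tktl1 and Smc1b, and 1 was lower, Hormad1 (0.978% and 2.13% of all genes). With no minimum fold, 13 were higher and 6 lower at an adjusted p under 0.05 (20.4% and 15.9%). Hormad1, a protein of meiotic chromosome axes, read 8.50, 8.38 and 8.35 in AH129-N1 and 10.31, 9.29 and 9.64 in AH129-NC1 (2.53-fold, log2 -1.34 ± 0.19, adjusted p = 2.79e-05). Magea6, a cancer-testis antigen gene of the X chromosome, read 8.97, 9.12 and 9.24 against 7.65, 8.00 and 7.95 (2.37-fold, log2 1.24 ± 0.21, adjusted p = 0.000147). Both were apart between the lines. Tex13b was 2.08-fold higher (log2 1.06 ± 0.21) and Dazl, an RNA-binding protein of germ cells, differed by 0.78 ± 0.07, short of 2-fold.

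Tktl1 (2.09-fold, log2 1.06 ± 0.30, adjusted p = 0.00856) and the meiotic cohesin Smc1b (2.01-fold, log2 1.01 ± 0.30, adjusted p = 0.0134) sat near the threshold. Tktl1 missed 2-fold with the omission of AH129-N1 replicate 3 (0.99), AH129-NC1 replicate 1 (0.94) or AH129-NC1 replicate 3 (0.89). Smc1b was short of it without AH129-N1 replicate 2 (0.95), AH129-NC1 replicate 1 (0.93) or AH129-NC1 replicate 3 (0.93). Tex13b and Tktl1 did not pass either when their probe sets were averaged (0.84 and 0.55), 1 of those of Tktl1 being near background in both lines.

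The enzymes that write and erase DNA methylation did not pass. Of 20 tested genes of that list, 6 were higher and 6 lower at an adjusted p under 0.05 at any fold (20.4% and 15.9% of all genes). At an unadjusted p under 0.05 the counts were 7 and 6. The de novo methyltransferase Dnmt3a stood at 0.67 ± 0.12, its partner Dnmt3l at -0.67 ± 0.09, Dnmt3b at -0.15 ± 0.08 and the dioxygenase Tet1 at 0.02 ± 0.06. Among 23 polycomb genes 0 passed, with a median of 0.07, and 6 were higher and 6 lower at an unadjusted p under 0.05.

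Imprinted genes are of interest in cells with a paternal genome alone, but both lines have that origin. Of 22 tested paternally expressed genes, 1 was higher, Mkrn3, and 0 lower (0.978% and 2.13% of all genes), with a median of -0.02. Mkrn3 was 2.09-fold higher (log2 1.06 ± 0.18, adjusted p = 0.000135) and missed 2-fold when AH129-N1 replicate 2 (0.97) or AH129-NC1 replicate 2 (0.98) was left out. Igf2, a fetal growth factor, read 10.17, 10.40 and 10.19 against 9.41, 9.19 and 9.73 (log2 0.81 ± 0.13, adjusted p = 5.86e-05), apart but short of 2-fold. Peg3 differed by 0.05 ± 0.09, Ndn by -0.24 ± 0.08 and Dlk1 by -0.09 ± 0.44, and Snrpn was too low to be tested.

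Of 27 tested maternally expressed genes, 1 was higher, Dhcr7, and 1 lower, Slc22a18 (0.978% and 2.13% of all genes). Dhcr7, the last enzyme of cholesterol synthesis, read 9.80, 9.48 and 10.01 against 8.65, 8.40 and 8.71 (2.26-fold, log2 1.18 ± 0.12, adjusted p = 4.49e-07). It was also the only one of 20 tested genes of cholesterol synthesis to pass (3.11% of all genes passed, list median 0.07). Slc22a18 was at least 1.22-fold lower and did not pass without AH129-N1 replicate 2 or 3 or AH129-NC1 replicate 1 or 3 (log2 -0.90 to -1.22, adjusted p from 0.0656 to 0.161). Phlda2 differed by -0.70 ± 0.12, Grb10 by 0.48 ± 0.08, Cdkn1c by 0.51 ± 0.29 with overlapping ranges, and Meg3 by 0.02 ± 0.08. The other probe sets of Meg3 ranged from -0.97 to 0.08, most of them negative. H19 was not analysed here.

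Hoxa9 was the single Hox gene of 17 tested to pass (3.11% of all genes passed). It read 9.92, 9.83 and 9.67 in AH129-N1 and 8.36, 8.31 and 8.38 in AH129-NC1, without overlap (2.75-fold, log2 1.46 ± 0.13, adjusted p = 1.04e-07), and its other probe set differed by 1.11. Its level was 10.78 ± 0.08 (SD, n = 3) in AH129-5, 5.19 ± 0.21 in CS1-1 and 5.96 ± 0.18 in R1, so that all 3 ahES lines lay above both diploid lines, with AH129-NC1 the lowest of the 3. Its neighbour Hoxa10 stood at 0.93, short of 2-fold.

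**Figure D4:**
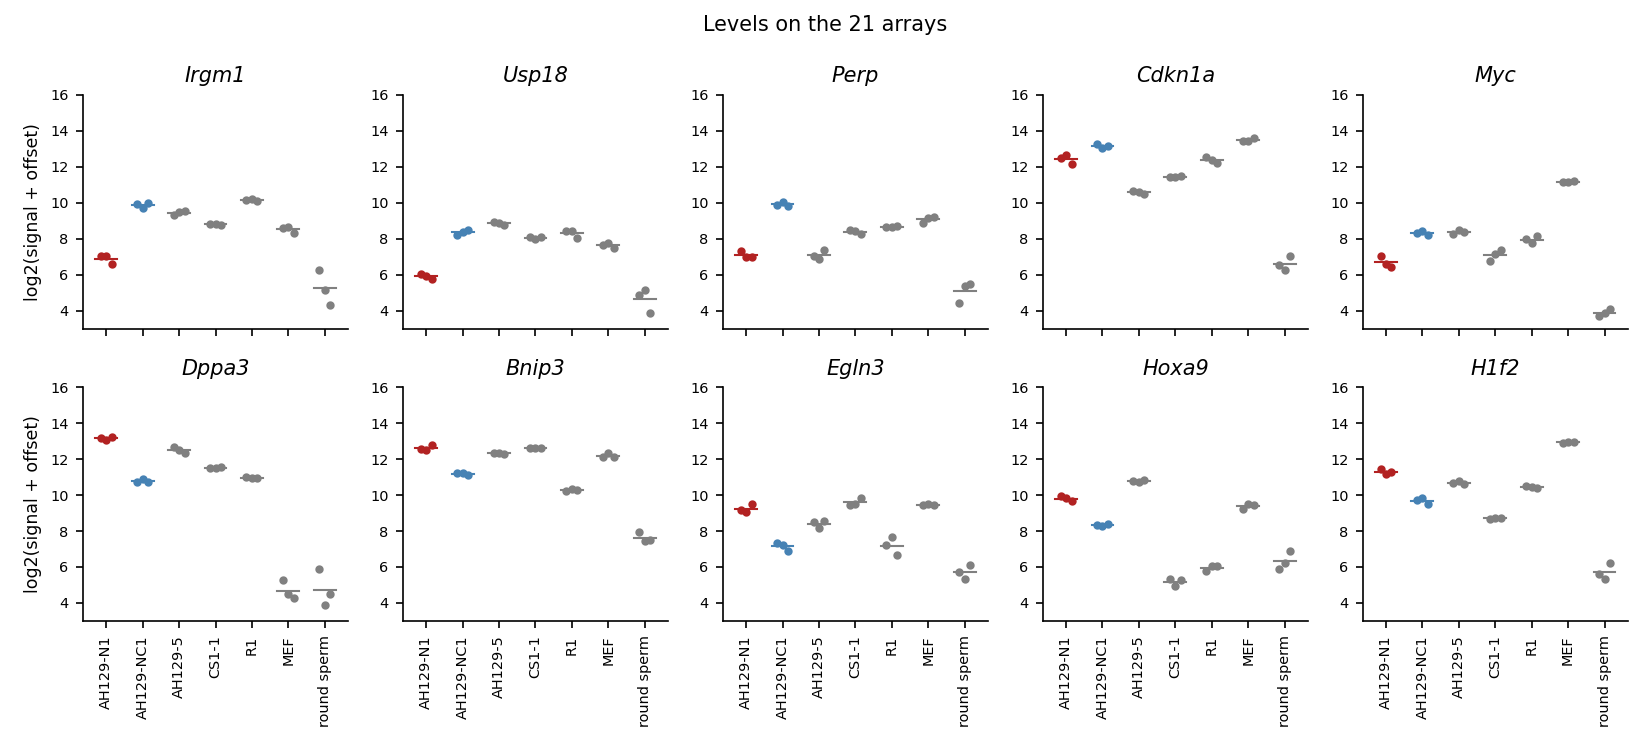
Level, as log2(signal + offset) on the vertical axis, of 10 genes in the 7 groups; points are single arrays and bars the mean of 3, with AH129-N1 in red, AH129-NC1 in blue and the other groups in grey. Irgm1 and Usp18 are lowest in AH129-N1 among the 5 ES lines, Perp stands out in AH129-NC1, and Cdkn1a is lowest of the ES lines in AH129-5.

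Markers of other lineages gave few calls, where 0.978% of all genes were higher and 2.13% lower. Among 9 tested mesoderm and primitive streak genes, Cdx1 was higher and Evx1 lower (at least 1.76-fold), and among 17 trophoblast genes 1 was lower, Bmp4. Evx1 did not pass without AH129-N1 replicate 3 (log2 -0.73, adjusted p = 0.198) or AH129-NC1 replicate 2 or 3 (adjusted p = 0.0769 and 0.102). Of 8 tested neural genes, 1 was lower, the zinc-finger gene Zic1 (at least 1.46-fold), which did not pass without AH129-N1 replicate 2 or 3 or AH129-NC1 replicate 3 (adjusted p from 0.0920 to 0.142). Gata6, of the primitive endoderm, differed by 0.12 ± 0.28 with overlapping ranges. Of 4 tested genes of the 2-cell-like state, 0 passed, and 0 were higher and 1 lower at an unadjusted p under 0.05.

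Metabolic and stress genes added single members. Phgdh, which opens the synthesis of serine, read 12.64, 12.70 and 12.69 in AH129-N1 and 11.65, 11.65 and 11.57 in AH129-NC1, apart and tight (2.08-fold, log2 1.05 ± 0.05, adjusted p = 9.4e-12). It was the only one of 29 tested amino acid and stress response genes to be higher, and 0 were lower (0.978% and 2.13% of all genes). The next enzymes of the pathway stood at 0.63 for Psat1 and 0.75 for Psph, and the list median was 0.11. When probe sets were averaged, Phgdh was short of 2-fold by a little (0.99).

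Of 24 tested glutathione S-transferase and NRF2 target genes, 1 was higher and 3 were lower (0.978% and 2.13% of all genes). Gstm3 was the higher one, and Gsto1, Gpx3 and Nqo1 were lower. Gsto1 read 10.53, 10.29 and 10.38 against 11.71, 11.70 and 11.64 (2.44-fold, log2 -1.28 ± 0.06, adjusted p = 9.4e-12), without overlap. Nqo1, a quinone reductase, was 2.02-fold lower (log2 -1.01 ± 0.08), the plasma peroxidase Gpx3 2.03-fold lower (log2 -1.02 ± 0.16) and Gstm3 2.03-fold higher (log2 1.02 ± 0.12). These 3 were at the threshold. Nqo1 missed 2-fold with the omission of AH129-N1 replicate 2 (-0.99) or 3 (-0.95) or AH129-NC1 replicate 2 (-0.98), Gpx3 without AH129-N1 replicate 2 (-0.91) or AH129-NC1 replicate 1 (-0.95) or 2 (-0.94), and Gstm3 without AH129-N1 replicate 3 (0.97) or AH129-NC1 replicate 2 (0.91). The list median was 0.05, close to that of all genes.

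Lists of 24 adhesion genes and 8 genes of X inactivation held 0 that passed, with medians of -0.06 and -0.10. In limma at an unadjusted p under 0.05, 6 and 1 were higher and 8 and 3 lower. Even at an adjusted p under 0.05, 20.4% of all genes were higher and 15.9% lower. Xist, which coats and silences an X chromosome, stood at -0.11 ± 0.12 with overlapping ranges. Of 6 measured Y-linked genes, 1 was tested, and it did not pass. In all, 20 of the 34 lists held at least 1 gene that passed, and 14 held 0.

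**Figure D5:**
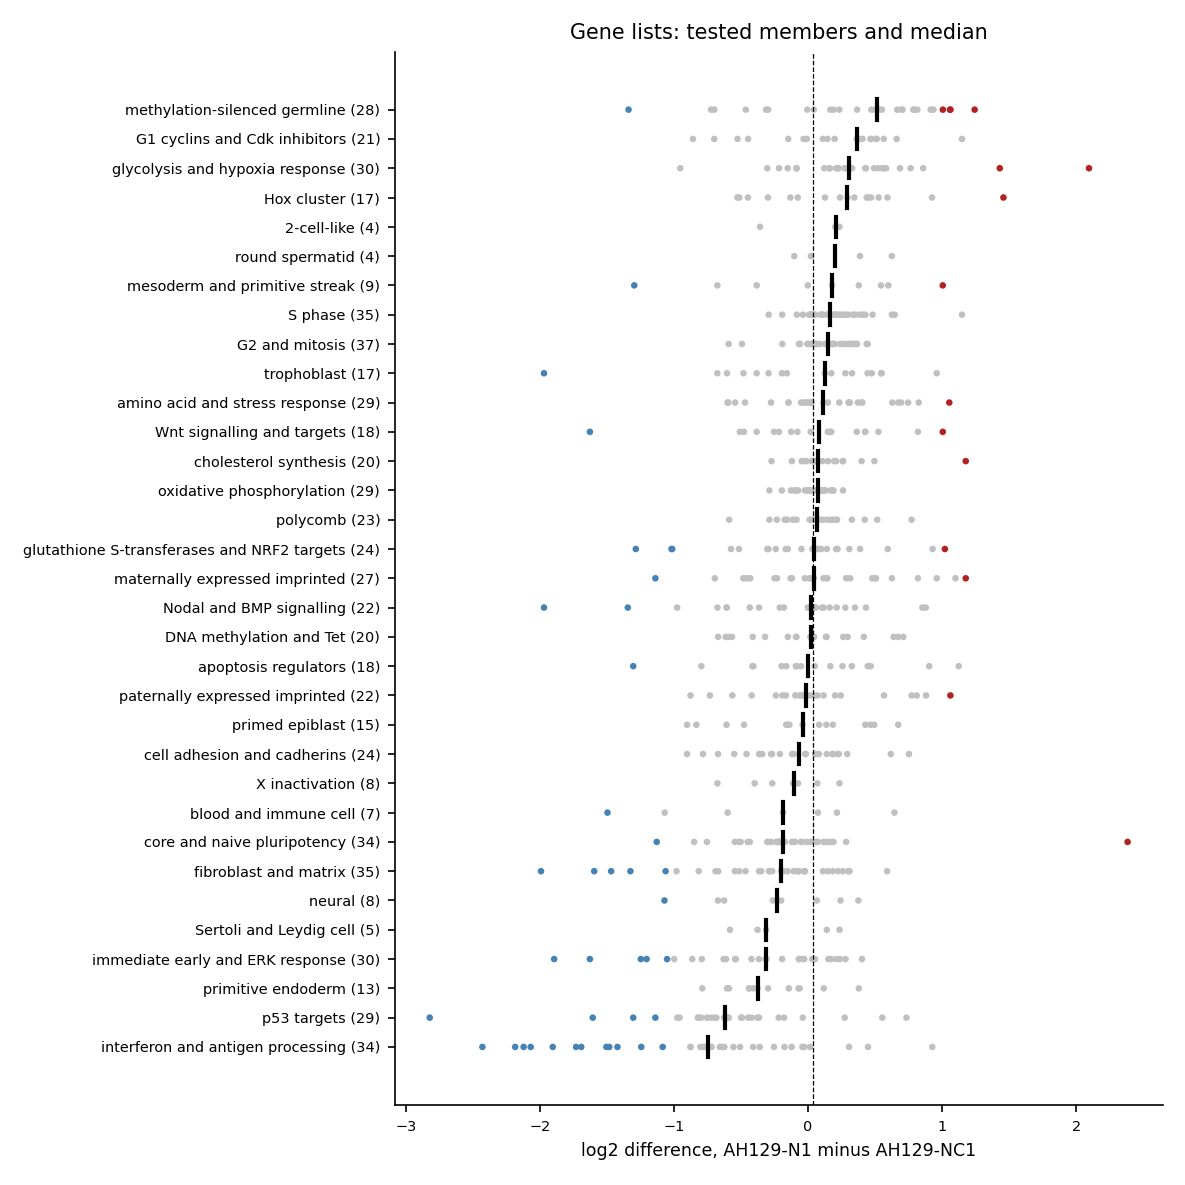
Difference of AH129-N1 minus AH129-NC1 (log2, horizontal axis) of the tested members of each list with 4 or more of them, number tested in parentheses. Black bars are list medians and the dashed line the median of all genes, 0.04; red and blue points passed as higher and lower, and the interferon-responsive and p53-induced genes have the lowest medians, -0.74 and -0.62.

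The levels in AH129-5 show in which line the genes stood apart. For the 118 genes that were higher in AH129-N1, the median difference from AH129-5 was 0.25 in AH129-N1 and -1.01 in AH129-NC1. For the 257 that were lower, it was -0.85 in AH129-N1 and 0.50 in AH129-NC1. The comparisons with AH129-5 share its arrays, and the genes were chosen by the difference between the other lines. The median differences are given as a description and were not tested.

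No large shift of a whole chromosome was seen, but such shifts were not tested. Median differences by chromosome ran from -0.02 on chromosome 19 to 0.07 on chromosome 14, and the largest distance from the median of all genes was 0.0586, on chromosome 19. On the X chromosome the median was 0.03 over 436 genes (0.00 to 0.06 over the 9 pairs of arrays, SD 0.02).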

How the data were processed

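Total RNA of the 21 samples was labelled with biotin by a 3' in vitro transcription kit and hybridised, 1 array per sample, per the labels' protocols. The deposited values, 45101 probe sets per array, are MAS5 signals on a log2 scale made by the authors. MAS5 comes from the submitters' processing notes, which give no version. Base 2 was inferred, since it returned a 2% trimmed mean signal of 500 on every array. Values ran from 0 to 15.7. MAS5 scales each array alone and subtracts mismatch probes, which makes low signals noisy. Scanner files were not used here, and the number of arrays limits the precision.

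Probe sets were named from the platform annotation, with symbols updated through Entrez identifiers to RefSeq. Of the 45101 probe sets, 64 were controls, 34945 had 1 symbol, 932 several and 9160 none, and 34741 matched RefSeq. Each of 18193 genes was read from its brightest probe set on average. The level was log2(signal + 9.73), the offset being the 20th percentile of the signal (median of the arrays). Genes above the 40th percentile on all 3 arrays of either compared line were tested. A mean per line was fitted over the 15 arrays of the 5 ES lines, which share 1 estimate of spread, with limma 3.58.1 and statmod 1.5.0 in R 4.3.3 (trended, robust variance), and p-values were adjusted by Benjamini-Hochberg over all genes tested. The fit was tested on simulated data. Differences are AH129-N1 minus AH129-NC1, and ± SE is that of the fit. Where a line's mean was at or below the 40th percentile of its arrays, the fold was computed against that percentile.

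The rule for named genes took the 15 largest rises and 15 largest falls without overlap between lines, in each list up to 4 genes that passed (all where 5 or fewer did), and a set of key genes. Other genes are named after their values were seen. The compared lines, the gene lists and the rule were chosen with earlier results of these data known. Alternatives changed the arrays fitted, offset, filter, scaling, choice of probe set and variance model, added a replicate block or left out 1 array. Replicate numbers are not stated to pair the arrays, and no pairing by them was seen.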

Additional observations from a re-analysis of the deposited data

How the results depend on the processing

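No named gene that passed changed direction under any of the 18 alternatives, and 40 of the 67 named genes that passed did so in all of them in which they were tested. The numbers of genes that passed, 118 higher and 257 lower, were 30 and 102 with an offset of 50, and 65 and 154 with a filter at the 60th percentile. The interferon list, with 12 lower genes, a median of -0.74 and 23 lower at an adjusted p under 0.05, had 7 and -0.64 with the offset of 50, and 4, -0.63 and 14 with the stricter filter. That filter left 9553 genes to test. Over all genes it took away 156 calls, each because the gene was no longer tested. The median of the interferon list was -0.69 with no filter and -0.64 with probe sets averaged. In the fit over all 21 arrays, 13 rather than 22 glycolysis and hypoxia genes were higher at an adjusted p under 0.05. The largest distance of a chromosome from the median of all genes, 0.0586, was 0.0407 with no filter and 0.0351 with probe sets averaged. The offset and the filter act on genes of low signal by construction, so the smaller counts under them are no test of the part of low signal. The cause of the other shifts was not tested. The offset of 50 took 20 named genes below the threshold, more than any other alternative: Gm11267, Ccdc158, Rims3, D930003E18Rik, Rem2, Oasl2, Zbp1, Cdx1, Evx1, Zic1, Prrx1, Mkrn3, Slc22a18, Tex13b, Tktl1, Smc1b, Egr3, Nqo1, Gstm3 and Gpx3. Averaging probe sets did so for 10, H1f2, Rims3, Acta2, Prrx1, Tex13b, Tktl1, Ddx58, Cd80, Egr3 and Phgdh, where for H1f2, Acta2, Prrx1, Tktl1, Ddx58 and Cd80 the average includes a probe set near background in both lines. The fit over all 21 arrays did so for Evx1, Zic1, Slc22a18 and Gpx3, quantile normalization for Cdx1, Smc1b and Gstm3, and an offset of 1 for D930003E18Rik, Evx1 and Smc1b. Testing with no filter, or with a variance model that was neither trended nor robust, did so for D930003E18Rik and Slc22a18. Leaving out probe sets marked as shared between transcripts did so for H2aw, whose remaining probe set was near background in AH129-NC1.

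With 1 array left out in turn, 106 to 147 genes were higher and 236 to 270 lower, the interferon median ran from -0.74 to -0.69, the glycolysis and hypoxia median from 0.24 to 0.34, and the chromosome distance from 0.0469 to 0.0584. Deviations of same-numbered arrays correlated at 0.02, -0.01 and 0.03 across genes, and those of different-numbered arrays at -0.05 to 0.04. No pairing by replicate number was seen, though arrays handled together without a shared effect would look the same. With the replicate block, 120 genes were higher and 251 lower, 365 of the 371 being shared with the fit without the block.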

Other observations

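Some genes next to each other in the genome passed in the same direction, and these pairs were chosen after their values were seen. Among 12008 pairs of adjacent tested genes, both members were lower in AH129-N1 in 13 and higher in 4. Of single genes, 2.13% were lower and 0.978% higher, and whether the pairs exceed what these shares give was not tested. Several pairs are of related genes, such as Oasl2 and Oasl1 or Ifit2 and Ifit3, and probes may not tell such genes apart. A run of 3 chemokine genes on chromosome 11, whose products attract monocytes, was lower. Ccl2 read 8.69, 8.63 and 8.08 in AH129-N1 and 10.14, 9.94 and 9.81 in AH129-NC1 (2.82-fold, log2 -1.50 ± 0.18, adjusted p = 5.28e-06 in limma), Ccl7 was 2.20-fold lower and Ccl8 2.31-fold lower. In AH129-5 the means were 9.97, 8.36 and 9.93, close to or above AH129-NC1, and in MEF Ccl2 stood at 14.54. On chromosome 9, Mmp13, Mmp12 and Mmp3 followed each other, all lower.

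Among the higher pairs, the acute-phase genes Saa1 and Saa2 on chromosome 7 were 2.43-fold and at least 1.70-fold higher, Saa2 being near background in AH129-NC1. The arylamine acetyltransferases Nat1 and Nat2 on chromosome 8 were at least 2.16-fold and 2.29-fold higher, Nat1 being near background in AH129-NC1. Saa1 and Saa2 are near-identical copies, and probes may read both.

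Promoters of the genes that passed held fewer CpG dinucleotides than those of the genes tested. The median observed over expected CpG in the 250 bases before the start site was 0.755 over 9756 tested genes with a promoter in the RefSeq table, 0.625 over 87 genes that were higher and 0.548 over 191 that were lower. The median GC content was 61.2%, 58.8% and 56%. These genes had lower signal than the rest, and the part of signal level in this difference was not tested.

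Of the 118 genes that were higher in AH129-N1, 40 (33.9%) were at least 2-fold higher in round sperm than in both lines, against 42 of the 257 lower genes (16.3%) and 18.8% of all genes tested. The round spermatid markers Prm1, Prm2 and Tnp1 were near background in both ahES lines.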
